A study of Mus musculus with 2 samples.

Results

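The vascular endothelial growth factor (VEGF) family was followed across the cells of the mouse cornea and its rim, the limbus, as 10 genes of the 32285 in the count tables. They were chosen by name, as the 5 ligand genes Vegfa, Vegfb, Vegfc, Vegfd and Pgf and the 5 receptor and co-receptor genes Flt1, Kdr, Flt4, Nrp1 and Nrp2, and all 10 were found in both libraries. Droplet single-cell RNA sequencing (10x Genomics) had been run on dissociated cornea and limbus, with 1 library labelled wild type and 1 labelled Pax6 +/-, the genotype of mice heterozygous for the eye transcription factor Pax6. The study's text names 2 mice of each genotype, and whether these were pooled is not given; strain, age, sex and the Pax6 allele are not given either. Lens, retina, iris and trabecular tissue had been taken out and most conjunctiva cut away before digestion with liberase and trypsin, so limbal vessels and some conjunctiva could remain. The data show which cells held each VEGF gene and how its level differed between these 2 libraries.

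VEGF-A, the main signal for blood vessel growth, binds the receptors VEGFR1 (Flt1) and VEGFR2 (Kdr), and VEGFR2 carries most of the growth signal. VEGF-B and placental growth factor (Pgf) bind VEGFR1 only, while VEGF-C and VEGF-D, once cut by proteases, act on VEGFR3 (Flt4) of lymphatic vessels, and VEGF-C also on VEGFR2. Neuropilin 1 and neuropilin 2 (Nrp1, Nrp2) are co-receptors that are shared with the class 3 semaphorins. The healthy cornea has no vessels, and a soluble form of VEGFR1 is known there as a decoy for VEGF-A; a count per gene does not separate the soluble form from the membrane form.

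A level is the number of unique molecular identifiers (UMIs, each 1 captured RNA molecule) of a gene summed over all cells of a class in a library, given per 1000000 UMIs of that class without mitochondrially encoded genes (CPM). The interval after a level is its exact 95% Poisson interval, and the interval after a ratio is the exact conditional binomial one; both cover counting error only, not mice, dissections or libraries. With 1 library per genotype there is no replicate and no test, so "higher" and "lower" compare these 2 libraries. Levels of a gene are compared between cells and libraries, never between genes. The level of Pax6 in epithelial cells was 371.8 CPM in wild type and 745.5 CPM in the library labelled Pax6 +/-. Outside epithelium Pax6 was lower in the library labelled Pax6 +/- in most classes. It was at 198 and 70.37 CPM in mural cells and 167.2 and 33.52 CPM in Schwann cells. Blood endothelial cells had 50.98 and 9.005 CPM, and keratocytes 25.23 and 21.58 CPM. Myeloid cells (86.25 and 97.55 CPM) and lymphatic endothelial cells (11.49 and 19.53 CPM) went the other way. Krt12, the gene of the cornea's own keratin, was at 29643.7 and 1772 CPM in epithelial cells. Since the Pax6 allele is not given, a count of Pax6 RNA per gene cannot check the genotype label. Every direction below is therefore a direction between 2 labelled libraries.

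After filtering, 10154 wild-type cells and 9542 cells of the library labelled Pax6 +/- remained, with medians of 10218 and 12537 UMIs per cell, and 33 barcodes occurred in both. Cells were sorted into classes by gates, which are sums of a few marker genes per 10000 UMIs. The gates held 8516 and 6756 epithelial cells, 675 and 924 keratocytes (the fibroblasts of the stroma), 73 and 531 mural cells, 75 and 298 blood endothelial cells, 14 and 165 lymphatic endothelial cells, 76 and 269 Schwann cells, and 34 and 103 myeloid cells, in wild type and in the library labelled Pax6 +/- respectively. Another 691 and 496 cells passed no gate. Marker genes outside the gates were at 20 CPM or more in their own class for 5 of 5 epithelial, 5 of 5 keratocyte, 6 of 6 endothelial, 4 of 4 lymphatic, 5 of 5 mural and 4 of 4 myeloid markers in both libraries, and for 3 and 4 of 4 Schwann markers. A gate is a range of a score and not a type: 3001 wild-type and 384 Pax6 +/- epithelial cells lay within 1 to 2 times the epithelial limit. The libraries also differed in sex, since 94.6% of wild-type cells had a UMI of Xist but none of a Y-linked gene, against 46.2% in the other library.

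The DNA just before the start of 5 members is printed because the results turn on them: Vegfa, Vegfd, Flt1 and Kdr for their differences between the libraries, and Vegfb as an evenly spread ligand beside them. Each window is RefSeq sequence on GRCm38.p6, written 5′ to 3′ on the gene's own strand. Those of Vegfb, Vegfd, Flt1 and Kdr end at the last base before the annotated gene. That of Vegfa ends at base 46032378, a few bases short of the annotated 5′ end at 46032369. Capitals mark matches on either strand to the 6 motifs searched: the hypoxia response cores ACGTG and GCGTG, the GC box GGGCGG, the TATA box TATAAA, the cyclic AMP response element TGACGTCA and the AP-1 site TGANTCA.
Vegfa, chr17:46032378-46032627, minus strand: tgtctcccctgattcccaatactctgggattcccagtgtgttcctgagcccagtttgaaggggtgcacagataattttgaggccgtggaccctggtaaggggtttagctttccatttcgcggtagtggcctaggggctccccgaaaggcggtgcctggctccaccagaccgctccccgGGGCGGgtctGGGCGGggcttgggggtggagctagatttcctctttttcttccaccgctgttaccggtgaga
Vegfb, chr19:6987652-6987901, minus strand: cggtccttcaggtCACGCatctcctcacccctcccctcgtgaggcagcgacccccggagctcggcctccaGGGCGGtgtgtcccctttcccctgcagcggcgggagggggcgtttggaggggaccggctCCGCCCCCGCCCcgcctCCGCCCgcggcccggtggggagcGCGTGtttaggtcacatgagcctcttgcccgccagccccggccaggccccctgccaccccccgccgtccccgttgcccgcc
Vegfd, chrX:164373272-164373377, plus strand: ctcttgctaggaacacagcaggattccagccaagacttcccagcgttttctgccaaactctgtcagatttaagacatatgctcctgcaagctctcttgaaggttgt
Flt1, chr5:147726012-147726261, minus strand: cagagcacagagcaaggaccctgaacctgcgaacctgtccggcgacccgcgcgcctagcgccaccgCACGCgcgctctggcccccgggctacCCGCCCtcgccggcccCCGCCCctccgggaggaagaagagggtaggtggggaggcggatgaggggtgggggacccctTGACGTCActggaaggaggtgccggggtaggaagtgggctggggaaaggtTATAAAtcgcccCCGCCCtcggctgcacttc
Kdr, chr5:75978459-75978705, minus strand: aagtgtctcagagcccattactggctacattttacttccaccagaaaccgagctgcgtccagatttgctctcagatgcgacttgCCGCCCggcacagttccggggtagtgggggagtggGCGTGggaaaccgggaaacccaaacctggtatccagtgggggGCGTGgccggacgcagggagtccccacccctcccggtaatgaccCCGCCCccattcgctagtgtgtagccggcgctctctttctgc

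Of the full windows of 250 bases before the RefSeq start, that of Vegfb was the richest in G and C among these 5, at 76.4% with 26 CpG, and that of Vegfd the poorest, at 42.4% with 2 CpG. The Flt1 window had 70.4%, the Kdr window 61.6% and the Vegfa window 59.2%, beside a median of 52.4% and 6 CpG over 32817 windows of the same length. The GC box matched 2 times for Vegfa, 4 times for Vegfb, 3 times for Flt1 and 2 times for Kdr, and 32.7% of all windows held it. GCGTG matched 2 times for Vegfb, 1 time for Flt1 and 2 times for Kdr, and 28.1% of all windows held it. The Flt1 window also held TATAAA, 31 bases before the start, and the palindrome TGACGTCA, 81 bases before it, motifs in 12.4% and 1.55% of all windows. For Vegfd a TATAAA lay 73 bases before the RefSeq start, in bases that overlap the annotated gene and are not printed. ACGTG (16.6% of windows) and TGANTCA (6.75%) matched in none of the 10 members' windows, which says only that these letters are not there.

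Of the ligands, Vegfa (ENSMUSG00000023951, GRCm38 chromosome 17, 46016993 to 46032369, minus strand) stood highest by level in the keratocytes of both libraries. Most of its UMIs lay in keratocytes in wild type and in the more numerous epithelial cells in the library labelled Pax6 +/-. In epithelial cells Vegfa was at 2.19 CPM (1.92 to 2.48, from 243 UMIs) in wild type and at 38.4 CPM (37.2 to 39.6, from 3944 UMIs) in the library labelled Pax6 +/-. That is a ratio of 17.6 (15.4 to 20.1), and it stayed between 13.9 and 20.1 over 12 other ways of processing (scaling, filters, gates, depth and sex). The filters on CPM among these set only which genes are called and cannot move a ratio. Without cells that had an endothelial UMI the log2 value of the Vegfa ratio was 4.15 beside 4.13. In keratocytes Vegfa was at 54.2 CPM (48.4 to 60.4) in wild type and at 151 CPM (144 to 158) in the other library, a ratio of 2.79 (2.48 to 3.15). The other ways of processing gave 2.07 to 3.18 there, the lowest when only cells with Xist and without Y-linked UMIs were used. Keratocytes gave 55.4% of all Vegfa UMIs in wild type and 31.1% in the library labelled Pax6 +/-, and epithelial cells gave 41.8% and 62.3%. Of the UMIs of all genes, keratocytes held 4.89% and 10.2%, and epithelial cells 91.3% and 80.6%. The epithelial share of Vegfa was thus below the epithelial share of all UMIs in both libraries. The full order of Vegfa levels began with Pax6 +/- keratocytes at 151 CPM, Pax6 +/- myeloid cells at 117 CPM and wild-type keratocytes at 54.2 CPM, whose intervals did not overlap. Epithelial, lymphatic endothelial and mural cells of the library labelled Pax6 +/- followed at 38.4, 36.0 and 35.9 CPM and could not be separated. Blood endothelial cells were at 5.10 CPM (2 UMIs) and 7.83 CPM (20 UMIs), and wild-type epithelial cells closed the order at 2.19 CPM.

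Free RNA from lysed cells can put a gene's UMIs into cells that do not express it, so each low level was set beside a carry-over value. This is the gene's level in a source class times the share at which that source's gate genes occur in the class at hand. For epithelial Vegfa with keratocytes as the source, it was 0.0513 CPM in wild type and 0.419 CPM in the library labelled Pax6 +/-, far below the 2.19 and 38.4 CPM measured. Each cell was also thinned to 2000 UMIs, so that a share of cells with a UMI does not follow depth. Vegfa was then seen in 30 of 7981 wild-type epithelial cells (0.376%) and in 511 of 6475 of the library labelled Pax6 +/- (7.89%); without thinning the shares were 2.45% and 36.0%. Schwann cells gave 1 of 61 (1.64%) and 2 of 248 (0.806%) after thinning. The Pax6 +/- epithelial share is well above that of Schwann cells. The wild-type share is not. Schwann cells held Vegfa at 4.40 CPM (1 UMI) and 8.02 CPM (11 UMIs), so they are no class without Vegfa, and how much of the wild-type epithelial level is background was not tested. Median depths before thinning were 11307 and 14149 UMIs in epithelial cells.

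The 2 epithelia are not made of the same cells, and the members were therefore also read in 4 groups. Krt12 encodes the cornea's own keratin and Gpha2 a secreted protein that marks limbal epithelium. The limits were 20 Krt12 UMIs and 2 Gpha2 UMIs per 10000. Krt12-high Gpha2-low cells numbered 7884 in wild type and 525 in the library labelled Pax6 +/-, Krt12-high Gpha2-high cells 457 and 52, Krt12-low Gpha2-low cells 40 and 3424, and Krt12-low Gpha2-high cells 135 and 2755. Near the limits lay 119 and 117 cells for Krt12 (10 to 40 per 10000) and 799 and 1415 cells for Gpha2 (1 to 4 per 10000).

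Vegfa was higher in the library labelled Pax6 +/- in each of the 4 groups, and the ratio was larger where Krt12 was high. In Krt12-high Gpha2-low cells it was at 1.81 CPM in wild type and 20.6 CPM in the other library, a ratio of 11.4 (9.29 to 14.1). In Krt12-high Gpha2-high cells it was at 4.03 and 34.6 CPM, a ratio of 8.57 (4.79 to 15.7). In Krt12-low Gpha2-low cells it was at 13.1 CPM, from 7 UMIs, and 32.9 CPM, a ratio of 2.51 (1.21 to 6.25). In Krt12-low Gpha2-high cells it was at 19.6 and 50.1 CPM, a ratio of 2.56 (1.76 to 3.86). With the Gpha2 limit dropped, the ratio was 11.5 (9.51 to 14.0) in Krt12-high and 2.25 (1.62 to 3.24) in Krt12-low cells, and these intervals do not overlap. Within the wild-type library the few Krt12-low cells held 17.8 CPM, above the 1.91 CPM of the Krt12-high cells. Thus the ratio of 17.6 over all epithelial cells is larger than that in any of the 4 groups, and the makeup of the epithelium differs between the libraries along the same split.

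**Figure D1:**
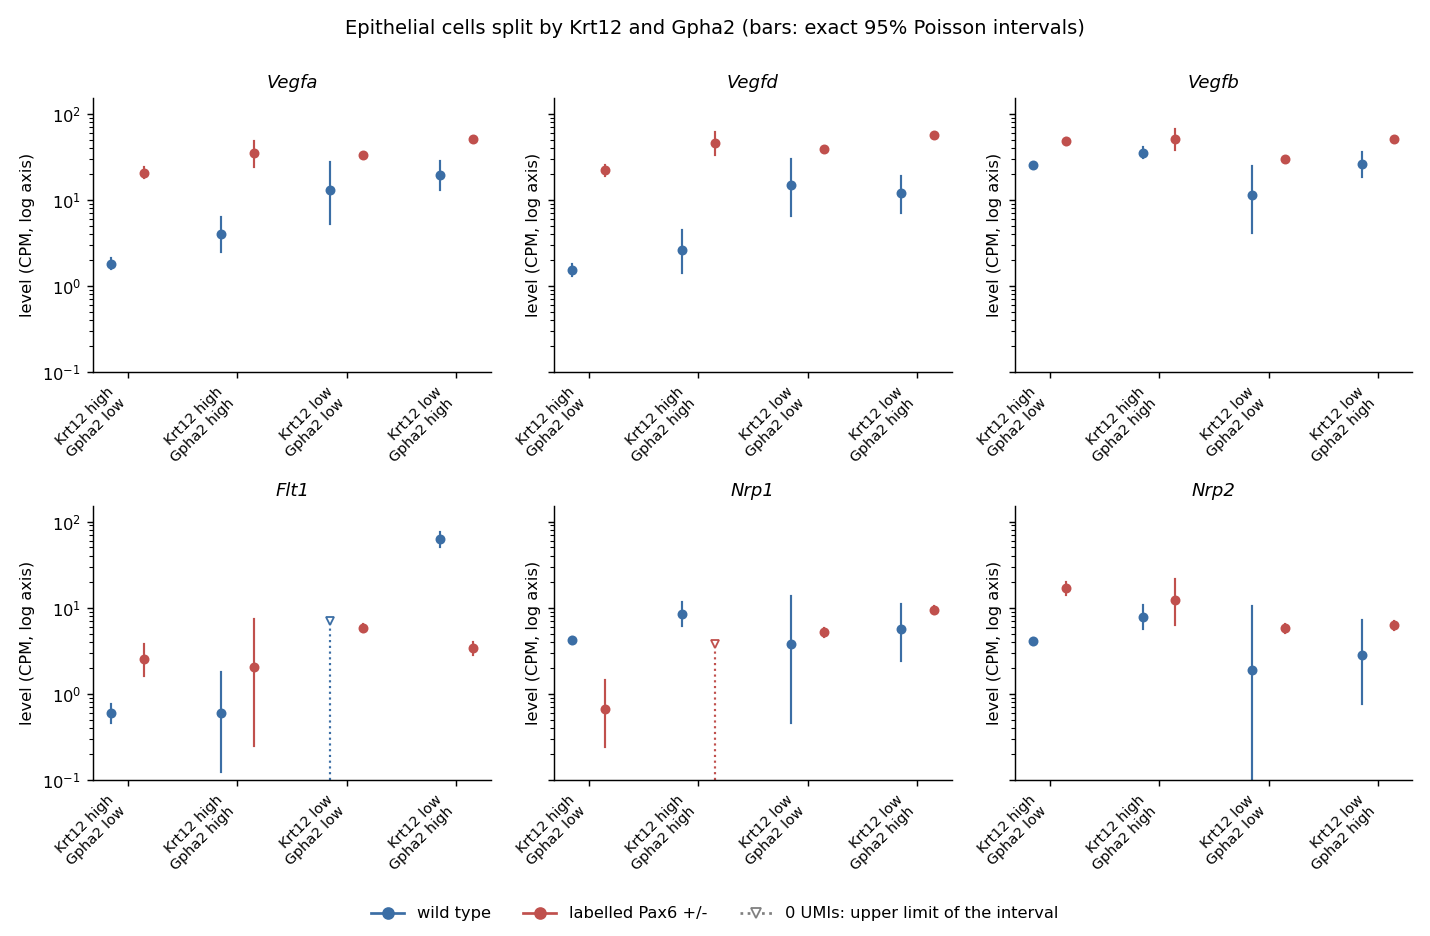
Levels of members in epithelial cells split by Krt12 and Gpha2, in CPM on a log axis, with wild type in blue and the library labelled Pax6 +/- in red; points are summed UMIs and bars exact 95% Poisson intervals. Vegfa and Vegfd stand higher in the red library in all 4 groups, while Flt1 is at 62.2 CPM in the wild-type Krt12-low Gpha2-high cells against 3.37 CPM in the other library.

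Vegfd (ENSMUSG00000031380; GRCm38 chromosome X, 164373378 to 164402650, plus strand), a ligand for the lymphatic receptor VEGFR3, was highest among the gated classes in the epithelium of the library labelled Pax6 +/-, but not in that of wild type. Epithelial cells held 88.4% and 95.2% of its UMIs, beside 91.3% and 80.6% of the UMIs of all genes, so their share stood above it only in the library labelled Pax6 +/-. Its epithelial level was 1.78 CPM (198 UMIs) in wild type and 43.9 CPM (4510 UMIs) in the library labelled Pax6 +/-. By group, Vegfd was at 1.54 and 22.1 CPM in Krt12-high Gpha2-low cells, a ratio of 14.4 (11.6 to 17.8), and at 2.62 and 45.7 CPM in Krt12-high Gpha2-high cells. In Krt12-low Gpha2-low cells it was at 15.0 CPM, from 8 UMIs, and 39.0 CPM, a ratio of 2.60 (1.32 to 6.02). In Krt12-low Gpha2-high cells it was at 11.9 and 55.7 CPM, a ratio of 4.68 (2.92 to 8.06). Vegfd thus followed Vegfa in being higher in all 4 groups, with the larger ratios in Krt12-high cells. After thinning it was seen in 0.313% of wild-type and 8.28% of Pax6 +/- epithelial cells, beside 0 of 61 and 1 of 248 Schwann cells. The thinned Pax6 +/- epithelial cells with a Vegfd UMI had a Vegfa UMI in 55 of 536 (10.3%, exact 95% interval 7.82 to 13.1), against 456 of 5939 without one (7.68%, 7.01 to 8.38). Inside the library labelled Pax6 +/-, cells of either sex gave close levels. Vegfd was at 43.1 CPM in epithelial cells with Xist alone and 45.6 CPM in those with Y-linked UMIs alone, and Vegfa at 37.4 and 40.1 CPM.

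In keratocytes, mural cells and blood endothelial cells of wild type, Vegfd was at or above the epithelial level, and in those of the library labelled Pax6 +/- it was well below it. In keratocytes it was at 2.69 CPM (16 UMIs) and 5.99 CPM (78 UMIs), a ratio of 2.23 (1.29 to 4.09), with carry-over from epithelium of 0.0739 and 0.755 CPM. In mural cells it was at 3.74 CPM (1 UMI) and 8.34 CPM (30 UMIs), and in blood endothelial cells it was at 7.65 CPM (3 UMIs) and 8.22 CPM. Below the 43.9 CPM of Pax6 +/- epithelial cells, neighbours in the order of Vegfd levels could not be separated by their intervals.

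Vegfb (ENSMUSG00000024962; GRCm38 chromosome 19, 6982473 to 6987651, minus strand), a ligand of VEGFR1 linked to cell survival and fat metabolism more than to vessel growth, was the most evenly spread ligand. Epithelial cells held 88.6% and 85.9% of its UMIs, near their share of all UMIs. In epithelial cells it was at 25.6 CPM (24.6 to 26.5) in wild type and 39.4 CPM (38.2 to 40.7) in the library labelled Pax6 +/-, a ratio of 1.54 (1.47 to 1.62). In keratocytes it went the other way, at 38.5 CPM (33.7 to 43.8) and 28.0 CPM (25.2 to 31.0), a ratio of 0.726 (0.614 to 0.860). Both ratios are within 2-fold. Lymphatic endothelial cells had 68.9 CPM (6 UMIs) and 64.1 CPM, above the other classes, and the next 12 places in its order ran from 39.4 to 5.10 CPM with each neighbour's interval overlapping.

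Vegfc (ENSMUSG00000031520; GRCm38 chromosome 8, 54077606 to 54187096, plus strand), the main lymphatic growth factor, lay in vessels and stroma and hardly in epithelium. Blood endothelial cells had 110 CPM (79.3 to 148) in wild type and 120 CPM (107 to 134) in the library labelled Pax6 +/-, which overlap. Keratocytes had 26.2 CPM (22.3 to 30.7) and 39.0 CPM (35.7 to 42.6), a ratio of 1.49 (1.24 to 1.79), and held 74.3% and 56.9% of all Vegfc UMIs. Epithelial cells had 3 UMIs in wild type and 21 in the other library, at 0.027 and 0.205 CPM. In the library labelled Pax6 +/- the 2 ligands of VEGFR3 thus stood highest in separate cells, Vegfd in the epithelium and Vegfc in blood endothelial cells and keratocytes.

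Pgf (ENSMUSG00000004791; GRCm38 chromosome 12, 85166635 to 85177790, minus strand), a VEGFR1 ligand, was a lymphatic endothelial gene here. Those cells held 12 of 29 wild-type Pgf UMIs (41.4%) and 138 of 275 in the library labelled Pax6 +/- (50.2%), at 138 and 84.2 CPM, a ratio of 0.611 (0.339 to 1.21). Myeloid cells had 21.6 CPM (3 UMIs) and 32.9 CPM. Epithelial cells held 3 and 9 UMIs of Pgf and keratocytes 7 and 16, the lowest levels among classes with any wild-type UMI. Blood endothelial cells were at 5.10 CPM (2 UMIs, both in 1 cell) and 19.2 CPM (49 UMIs in 3 of 298 cells, 35 of them in 1 cell), and mural cells at 7.47 CPM (2 UMIs) and 8.07 CPM.

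**Figure D2:**
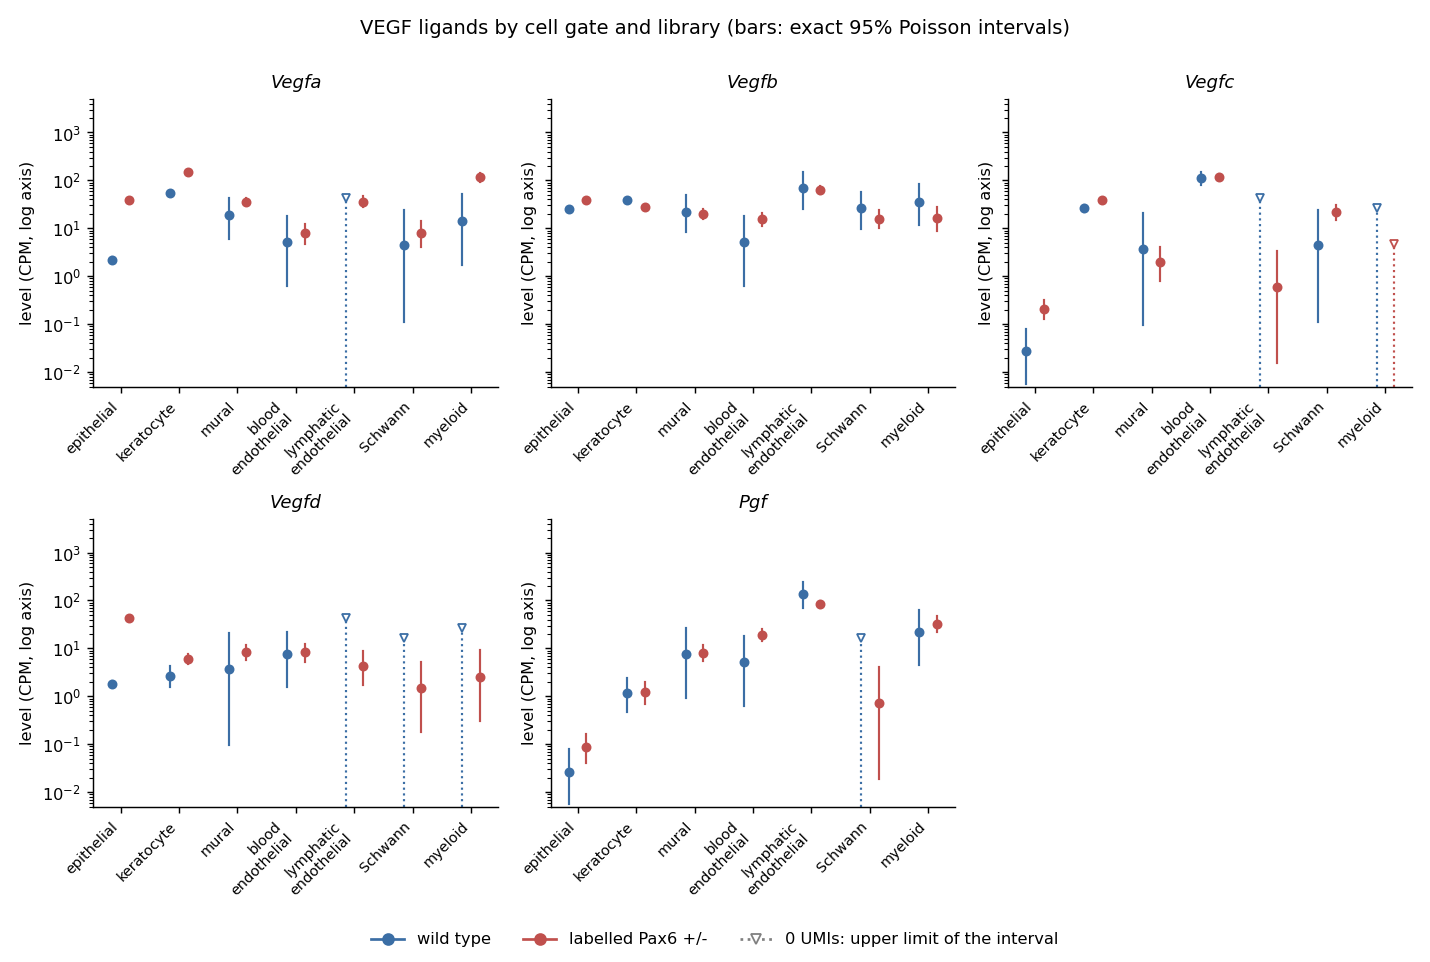
Levels of the 5 ligand genes in 7 cell gates, in CPM on a log axis, with wild type in blue and the library labelled Pax6 +/- in red; bars are exact 95% Poisson intervals and open triangles mark the upper limit where no UMI was counted. Vegfa and Vegfd show the widest gaps between the libraries in epithelial cells (2.19 against 38.4 CPM and 1.78 against 43.9 CPM), while Vegfc stands highest in blood endothelial cells.

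Of the receptors, Flt1 (ENSMUSG00000029648; GRCm38 chromosome 5, 147561604 to 147726011, minus strand), which encodes VEGFR1 and its soluble decoy form, was a gene of blood endothelium. Blood endothelial cells were at 2694 CPM (2534 to 2862) in wild type and 2815 CPM (2750 to 2880) in the library labelled Pax6 +/-, a ratio of 1.04 (0.979 to 1.12). They held 82.4% and 85.0% of all Flt1 UMIs. Mural cells followed at 172 CPM (126 to 229) and 183 CPM (169 to 197), which overlap; carry-over from blood endothelium would give 61.4 and 25.3 CPM of this. Of the 46 wild-type UMIs, 54.3% sat in 2 cells with endothelial UMIs, against 16.1% of the 657 in the other library. Keratocytes were at 1.01 CPM (6 UMIs) and 4.84 CPM (63 UMIs), below the carry-over of 3.43 and 7.10 CPM, so Flt1 in keratocytes was not distinguishable from background.

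Epithelial Flt1 as a whole was also at the level of carried-over endothelial RNA. It stood at 1.39 CPM in wild type and 4.55 CPM in the library labelled Pax6 +/-, where carry-over gives 1.42 and 6.02 CPM. Of the 467 Pax6 +/- UMIs, 34.5% sat in 30 cells that also had a UMI of an endothelial gate gene. One group of wild-type cells stood apart from this. In the Krt12-low Gpha2-high cells of wild type, Flt1 was at 62.2 CPM (50 to 76.6), against 3.37 CPM (2.82 to 4) in the same gate of the library labelled Pax6 +/-, so wild type was 18.5-fold higher (14.0 to 24.3). Carry-over would give 3.22 and 6.76 CPM there. The intervals of these levels and of their ratio count each UMI as independent. The wild-type UMIs were clumped in few cells, so these intervals are too narrow.

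The 89 wild-type Flt1 UMIs of this group came from 23 of 135 cells, 10 at most from any cell, and 77.5% from 10 cells. None of the 23 cells had a UMI of the 6 endothelial gate genes, and Kdr was at 0 in all 135 cells. The 23 cells had a median of 10155 UMIs, and the 112 others 9673. In the cells with Flt1, Gpha2 was at 2976 CPM and Krt14, a keratin of basal cells, at 7579 CPM, and in the others at 2059 and 4931 CPM. Krt15, another basal keratin, was at 3248 CPM with Flt1 and at 10009.5 CPM without. Since the 23 cells were picked by their Flt1 UMIs, these are descriptions of them.

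Among the wild-type Krt12-low cells, Flt1 was found in 0 of the 40 cells with under 2 Gpha2 per 10000, in 3 of the 31 cells with 2 to 10 (26.1 CPM, from 11 UMIs), and in 20 of the 104 cells with 10 or more (77.4 CPM, from 78 UMIs). These steps rest on few cells, and Poisson intervals of their UMIs, which are clumped in those cells, would be too narrow. In the library labelled Pax6 +/- the same steps gave 5.80, 3.17 and 4.02 CPM over 3424, 1993 and 762 cells. Thinned to equal depth, 14 of 135 wild-type cells of the group (10.4%) had a Flt1 UMI, against 20 of 2669 (0.749%). Without thinning it was 17.0% and 3.01%. Schwann cells, as a class without Flt1, gave 0 of 61 and 1 of 248 after thinning. The group held few wild-type cells, and whether they came from 1 mouse or more cannot be told apart.

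**Figure D3:**
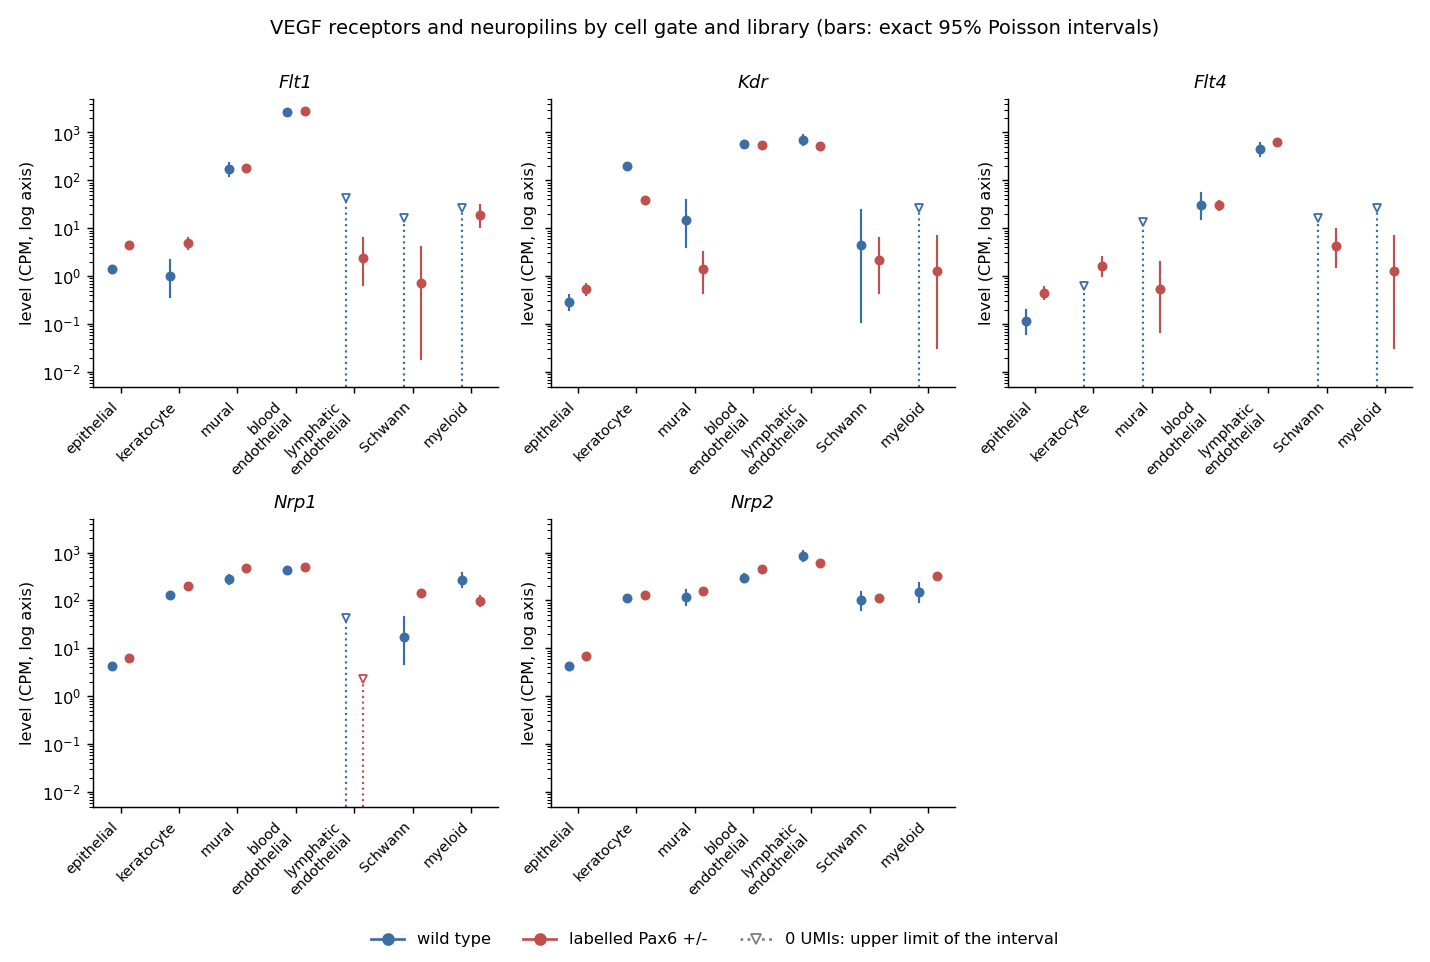
Levels of the 5 receptor and co-receptor genes in 7 cell gates, in CPM on a log axis, with wild type in blue and the library labelled Pax6 +/- in red; bars are exact 95% Poisson intervals and open triangles mark the upper limit where no UMI was counted. Kdr in keratocytes stands at 196 CPM in wild type and 38.2 CPM in the other library, while in blood endothelial cells the points of Flt1, Kdr and Flt4 lie beside each other.

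Kdr (ENSMUSG00000062960; GRCm38 chromosome 5, 75932827 to 75978458, minus strand), the gene of VEGFR2, was lower in keratocytes of the library labelled Pax6 +/- and at a like level in the vessels of both. Wild-type keratocytes were at 196 CPM (185 to 207, from 1165 UMIs) and those of the other library at 38.2 CPM (34.9 to 41.7, from 497 UMIs). Wild type was thus 5.13-fold higher (4.62 to 5.71), and the ratio of the library labelled Pax6 +/- over wild type lay between 0.190 and 0.236 over the 12 other ways of processing. Carry-over from blood endothelium would give 0.727 and 1.38 CPM. Kdr was spread over 414 of the 675 wild-type keratocytes, and the 10 cells with most Kdr held 7.98% of its UMIs. After thinning, 196 of 632 wild-type keratocytes (31.0%) and 46 of 891 of the other library (5.16%) had a Kdr UMI, beside 1 of 61 and 2 of 248 Schwann cells. Without thinning the shares were 61.3% and 26.4%, at median depths of 9342 and 14979 UMIs per keratocyte.

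The difference in Kdr was seen in keratocytes with high Kera, the gene of the corneal proteoglycan keratocan. In the 583 wild-type and 576 Pax6 +/- keratocytes with at least 10 Kera per 10000, Kdr was at 214 and 41.9 CPM, with wild type 5.10-fold higher (4.53 to 5.74). In the 92 and 348 keratocytes below that limit it was at 20.3 CPM (11 UMIs) and 29.9 CPM, a ratio of 1.47 (0.795 to 3.03), so the lower Kdr was not seen there. Kera-high and Kera-low cells were thus far apart in Kdr in wild type and close in the library labelled Pax6 +/-. The median Kera level of keratocytes was 93.8 per 10000 in wild type and 35.2 in the library labelled Pax6 +/-, and 24 and 74 cells lay at 5 to 20. Within the library labelled Pax6 +/-, Kdr was at 46.8 CPM in keratocytes with Xist alone and at 37.8 CPM in those with Y-linked UMIs alone, both well under the wild-type level. Vegfa and Kdr thus differed in opposite directions in keratocytes, and Vegfa was higher by 3.21-fold (2.83 to 3.66) in Kera-high and 1.5-fold (1.09 to 2.11) in Kera-low cells.

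Markers of other cells in the keratocyte gate are given for this result. Of the 6 endothelial check markers only Erg, a transcription factor of endothelium, was at 20 CPM or more in keratocytes, at 387 CPM in wild type and 255 CPM in the library labelled Pax6 +/-. The summed endothelial gate genes were at 5.21 and 10.9 CPM, against 4096 and 4325 CPM in blood endothelial cells. Gpha2 was at 366.9 and 66.58 CPM in keratocytes, beside 75.98 and 335.1 CPM in epithelial cells. In wild type it thus stood higher in the keratocyte gate than in the epithelial gate. Krt12 was at 1430 and 65.43 CPM in keratocytes, beside 29643.7 and 1772 CPM in epithelial cells. The part of these 2 genes in the Kdr level was not tested, and Kdr itself was at 0.288 and 0.536 CPM in epithelial cells.

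In blood endothelial cells Kdr was at 571 CPM (499 to 651) in wild type and 549 CPM (521 to 579) in the library labelled Pax6 +/-, a ratio of 0.962 (0.835 to 1.11). Lymphatic endothelial cells were at 701 CPM (61 UMIs) and 534 CPM, a ratio of 0.762 (0.588 to 1.01). In the order of Kdr levels the blood endothelial cells of both libraries and the lymphatic cells of the library labelled Pax6 +/- could not be separated, and wild-type keratocytes came next. Mural cells had 4 UMIs in wild type and 5 in the other library, at 14.9 and 1.39 CPM, beside a carry-over from blood endothelium of 13.0 and 4.94 CPM. Keratocytes held 78.2% of all Kdr UMIs in wild type and 17.4% in the other library, and blood endothelial cells 15.0% and 49.2%. The numbers of vessel cells differed too, so these shares are shares of the cells captured.

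Flt4 (ENSMUSG00000020357; GRCm38 chromosome 11, 49609263 to 49652739, plus strand), the gene of the lymphatic receptor VEGFR3, was at 448 CPM (39 UMIs) and 643 CPM (605 to 683) in lymphatic endothelial cells, a ratio of 1.43 (1.04 to 2.03) that rests on 14 wild-type cells. Blood endothelial cells were at 30.6 CPM (15.8 to 53.4) and 30.5 CPM (24.1 to 38.1). All other classes were under 5 CPM in both libraries. Keratocytes had no Flt4 UMI in wild type and 21 in the library labelled Pax6 +/- (1.61 CPM).

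Nrp1 (ENSMUSG00000025810, GRCm38 chromosome 8, 128358604 to 128503363, plus strand), the co-receptor of VEGFR2, was found in blood vessel walls, stroma and myeloid cells of both libraries. In Schwann cells Nrp1 was found mainly in the library labelled Pax6 +/-. Its gene model contains the microRNA gene Mir1903. It was at 433 and 505 CPM in blood endothelial cells, a ratio of 1.17 (0.993 to 1.38), and at 276 CPM (217 to 347) and 482 CPM (460 to 505) in mural cells, a ratio of 1.74 (1.38 to 2.23). Keratocytes were at 133 CPM (124 to 142) and 196 CPM (189 to 204), a ratio of 1.48 (1.36 to 1.60). In Kera-high keratocytes these were 129 and 153 CPM and in Kera-low ones 172 and 291 CPM. In Schwann cells it was at 17.6 CPM, from 4 UMIs, and at 143 CPM, from 196 UMIs, a ratio of 8.12 (3.12 to 30.1). In myeloid cells it was at 266 CPM (37 UMIs) and 96.3 CPM (76 UMIs), lower in the library labelled Pax6 +/- with a ratio of 0.362 (0.241 to 0.552). Lymphatic endothelial cells had no Nrp1 UMI in either library, which allows at most 2.25 CPM in the library labelled Pax6 +/- and 42.4 CPM in wild type.

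Nrp2 (ENSMUSG00000025969; GRCm38 chromosome 1, 62703285 to 62818695, plus strand), the co-receptor of VEGFR3, was the neuropilin of lymphatic cells. Its locus overlaps the antisense gene Gm29083, which is also counted, so reads of the 2 could be confused if strand was not used. It was at 850 CPM (74 UMIs) and 595 CPM in lymphatic endothelial cells, a ratio of 0.699 (0.552 to 0.898), and at 291 CPM (240 to 349) and 452 CPM (427 to 479) in blood endothelial cells, a ratio of 1.56 (1.28 to 1.90). After thinning it was seen in 36.2% and 52.7% of blood endothelial cells. Myeloid cells were at 151 and 324 CPM, a ratio of 2.15 (1.38 to 3.53). Mural cells, keratocytes and Schwann cells lay between 101 and 155 CPM in both libraries, and their neighbours in the order could not be separated.

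In Krt12-high epithelial cells the 2 neuropilins differed in opposite directions, and in Krt12-low cells they did not. Over all epithelial cells Nrp1 was at 4.39 and 6.31 CPM, a ratio of 1.44, and Nrp2 at 4.21 and 6.97 CPM, a ratio of 1.65. In Krt12-high cells Nrp1 was at 4.37 CPM (477 UMIs) in wild type and 0.597 CPM (6 UMIs) in the library labelled Pax6 +/-, so wild type was 7.32-fold higher (3.34 to 20). Both levels are under the 5 CPM of the filter used below, so this ratio has no call. Carry-over from keratocytes would give 0.127 and 0.431 CPM of Nrp1 there, near the level of the library labelled Pax6 +/-. In the same cells Nrp2 was at 4.24 and 16.3 CPM, a ratio of 3.85 (3.20 to 4.61). In Krt12-low cells Nrp1 was at 5.09 and 6.93 CPM, a ratio of 1.36 (0.735 to 2.85), and Nrp2 at 2.55 CPM (5 UMIs) and 5.96 CPM, a ratio of 2.34 (0.996 to 7.23). Epithelial Nrp1 of the library labelled Pax6 +/- was at 8.88 CPM in cells with Xist alone and 3.13 CPM in those with Y-linked UMIs alone.

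**Figure D4:**
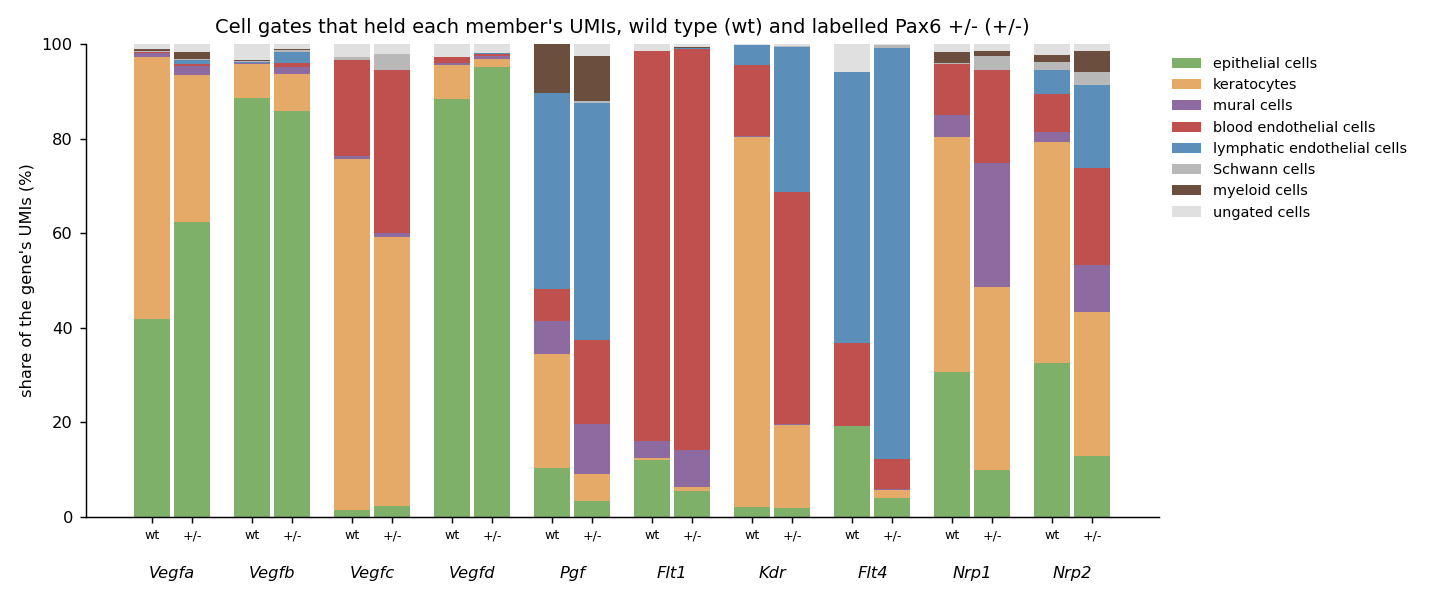
Share of each member's UMIs held by each cell gate, in percent of the UMIs in kept cells, with wild type (wt) on the left and the library labelled Pax6 +/- (+/-) on the right of each pair of bars. The Kdr share of keratocytes is 78.2% in wild type and 17.4% in the other library, and the Vegfa share of epithelial cells is 41.8% and 62.3%; shares follow the number of cells captured as well as the level per cell.

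Counted by size, members were compared with all genes that passed the same filter, 5 CPM or more in either library and 20 or more UMIs over both, with 2-fold as the limit. In epithelial cells 5 of the 10 members passed, and 2 were at least 2-fold higher in the library labelled Pax6 +/- (Vegfa and Vegfd), beside 16.5% of 10618 genes; none was lower, beside 6.67% of genes. In keratocytes 7 passed, 2 were higher (Vegfa and Vegfd), beside 9.14% of 10973 genes, and 1 was lower (Kdr), beside 9.27%. In mural cells 7 passed, 1 was higher (Vegfd, from 1 wild-type UMI), beside 12.1% of 10395 genes, and none was lower, beside 12.2%. In blood endothelial cells all 10 passed, 2 were higher (Vegfb and Pgf, from 2 wild-type UMIs each, and Pgf from 3 cells in the other library), beside 12.8% of 9552 genes, and none was lower, beside 4.17%. With 5 to 10 members past the filter, 1 or 2 members are too few to set apart from these shares. Vegfa and Vegfd also passed in epithelial cells only through their level in the library labelled Pax6 +/-. The same holds for Vegfd in keratocytes and in mural cells. In those cells these genes could not have been called lower, so their counts support nothing by themselves. The median log2 ratio over all genes was 0.22 in epithelial cells, −0.20 in keratocytes, −0.05 in mural cells and 0.19 in blood endothelial cells. Other scalings shift every log2 ratio by −0.32 (edgeR TMM) or −0.34 (DESeq2) in epithelial cells, by 0.19 or 0.18 in keratocytes and by 0.24 or 0.21 in mural cells; no call in epithelial cells or keratocytes changed with them.

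**Figure D5:**
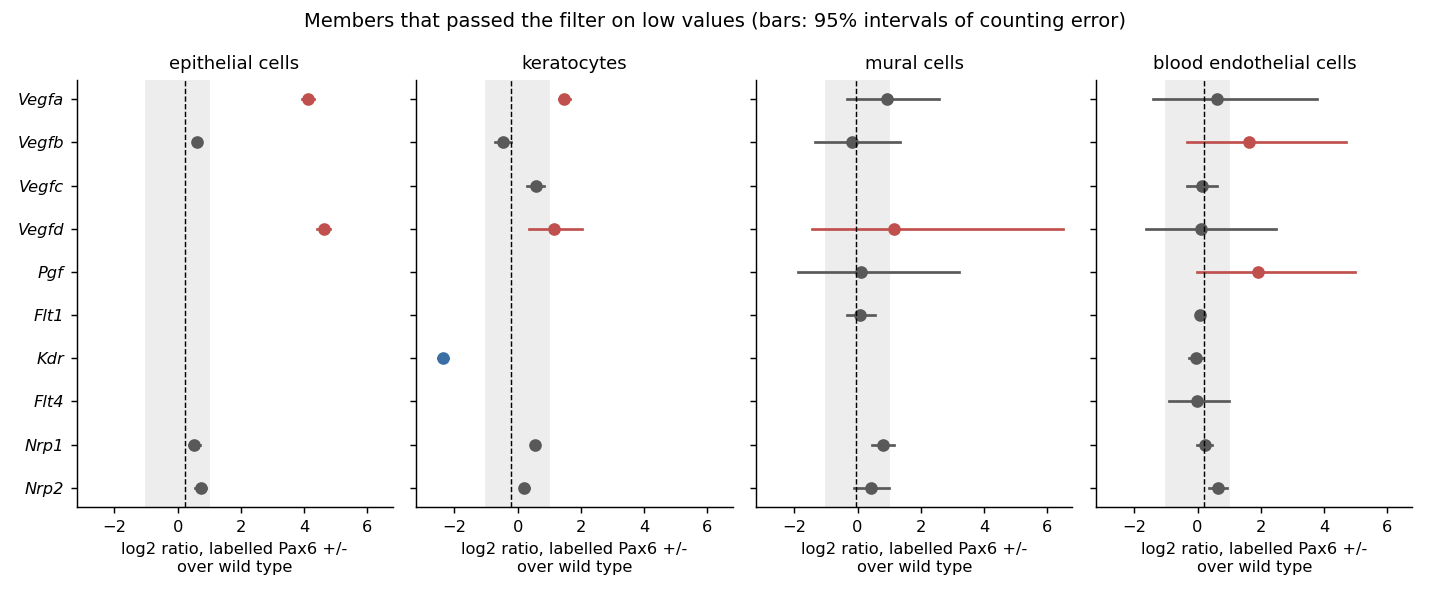
Ratio of the library labelled Pax6 +/- over wild type, on a log2 axis, for the members that passed the filter on low values in 4 cell gates; bars are 95% intervals of counting error. Vegfa (17.6) and Vegfd (24.6) stand far to the right in epithelial cells and Kdr (0.195) to the left in keratocytes, while Flt1, Kdr and Flt4 of blood endothelial cells sit near 1.

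Other genes of VEGF biology were read from 8 lists. In epithelial cells, of 14 anti-angiogenic genes of the cornea 8 passed the filter, and all 8 were at least 2-fold higher in the library labelled Pax6 +/-, with a median log2 ratio of 2.69 beside 0.22 for all genes, of which 16.5% were that much higher. For 3 of the 8, carry-over from keratocytes would give much of the level. Angptl7, an angiopoietin-like protein of the cornea, was at 5.29 and 19.2 CPM, beside a carry-over of 5.53 and 18.8 CPM. Serpinf1 (the factor PEDF) was at 1.96 and 12.1 CPM, beside 1.90 and 9.34 CPM, and Sparc, a matrix protein, at 37.9 and 199 CPM, beside 11.6 and 85.8 CPM. Angptl7 in epithelial cells was therefore not distinguishable from background. For the other 5 the carry-over was at most 3.28% of the level in either library. Col18a1, whose protein yields endostatin, was at 0.621 CPM in wild type and 17.8 CPM in the other library. Adamts1, a protease that binds VEGF-A, was at 9.97 and 166 CPM, and Thbs1, thrombospondin 1, at 18.7 and 84.7 CPM. Genes of any list under 5 CPM in wild type, here Col18a1 and Serpinf1 among them, passed the filter only through the library labelled Pax6 +/-. Such genes could not be called lower, so counts of higher genes that include them support nothing by themselves.

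In the same epithelial cells, 14 of 16 genes of hypoxia and VEGF induction passed, of which 5 were higher and 2 lower. This list and those that follow for these cells stand beside 16.5% of all genes higher and 6.67% lower by 2-fold. The hypoxia list's median was 0.42 in log2 beside 0.22 for all genes. Bnip3, a mitophagy receptor, was at 1.24 and 8.11 CPM, and Ddit4, an mTOR inhibitor induced by stress, at 5.73 and 23.7 CPM. Egln3, an oxygen-sensing prolyl hydroxylase that HIF induces, was at 620 and 190 CPM, and Adm, the HIF target adrenomedullin, at 268 and 54.8 CPM, both lower in the library labelled Pax6 +/-. These HIF targets thus differed in both directions beside the higher Vegfa. Of 10 genes of VEGF-C and VEGF-D processing 6 passed and 2 were higher: Pcsk5, a proprotein convertase, at 2.32 and 43.6 CPM, and Plat, tissue plasminogen activator, at 53.9 and 157 CPM.

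Of 12 neuropilin partners 8 passed in epithelial cells, of which 4 were higher and 1 lower; the list's median was 0.95 in log2. The semaphorin Sema3e was at 1.15 and 26.6 CPM and Sema3a, a ligand of neuropilin 1, at 9.86 and 42.9 CPM, while the plexin Plxna2 was at 60.6 and 18.2 CPM. VEGF receptor signalling genes gave 4 higher and none lower of 11 that passed, with a median log2 ratio of −0.00265 and with Prkca, a protein kinase C, at 57.7 and 208 CPM. Tip cell genes gave 1 higher of 2 (Pdgfb at 1.77 and 8.43 CPM), other angiogenic factors 2 higher and 1 lower of 6 (Fgf1 at 0.45 and 5.04 CPM, Ccn1 at 371 and 161 CPM), and the lymphatic programme 1 higher of 2 (Nfatc1 at 3.19 and 9.59 CPM).

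In keratocytes each list stands beside 9.14% of all genes higher and 9.27% lower by 2-fold. The list of VEGF receptor signalling had 12 genes past the filter, of which 5 were higher and none lower. Its median was 0.80 in log2 beside −0.20 for all genes. Rcan1, a calcineurin regulator that VEGF induces in endothelium, was at 30.1 and 167 CPM, and Nr4a1, an immediate early nuclear receptor, at 327 and 710 CPM. These were higher in the library in which Kdr was lower. Of 15 hypoxia genes none was higher and 2 were lower, with Egln3 at 41.9 and 11.3 CPM, while Slc2a1, the glucose transporter, was within 2-fold at 110 and 195 CPM. Among processing genes 2 were higher and 1 lower of 8. Adamts3, the protease that activates VEGF-C, was at 2.19 and 12.7 CPM, and Ccbe1, its cofactor, at 141 and 60.6 CPM, so enzyme and cofactor differed in opposite directions.

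Neuropilin partners in keratocytes gave 1 higher and 3 lower of 9, with Sema3d at 6.39 and 32.6 CPM, Sema3c at 985 and 282 CPM and Sema3e at 100 and 11.5 CPM. Sema3e was thus lower in keratocytes and higher in epithelium of the library labelled Pax6 +/-. Of the anti-angiogenic genes 4 were higher and none lower of 10, with a median of 0.63. The basement membrane collagen Col4a3, source of tumstatin, was at 2.19 and 28.0 CPM and Col18a1 at 1.18 and 12.3 CPM, while Thbs1 was within 2-fold at 649 and 519 CPM. Tip cell genes gave 1 higher of 1 (Unc5b at 11.9 and 26.9 CPM), and other angiogenic factors 3 higher of 9, with Igf1 at 14.3 and 82.6 CPM and the chemokine Cxcl12 at 23.0 and 57.6 CPM. The lymphatic programme gave 4 higher of 6, among them Lyve1, with no wild-type UMI and 5.53 CPM. Prox1, also on this list, was at 2.86 and 5.84 CPM. The summed lymphatic gate genes in keratocytes were at 2.86 CPM in wild type and 21.9 CPM in the library labelled Pax6 +/- (52.7 CPM in its Kera-low cells). Prox1 and Lyve1 are among these gate genes, so the sum is not independent of the list, and in wild type it was the level of Prox1 alone. From the 2 libraries, 14 and 165 lymphatic endothelial cells had been captured. Their part in the list's values was not tested.

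In blood endothelial cells, where the receptors stood at like levels, each list is given beside 12.8% of all genes higher and 4.17% lower by 2-fold. VEGF receptor signalling gave 1 higher of 14 (Dusp5, a phosphatase of ERK, at 63.7 and 138 CPM), and tip cell genes 2 higher of 9 (Cxcr4 at 7.65 and 20 CPM, Unc5b at 22.9 and 50.1 CPM), with Pdgfb within 2-fold at 171 and 95.9 CPM. Hypoxia genes gave 1 higher and 2 lower of 14, with Egln3 at 53.5 and 14.1 CPM. Anti-angiogenic genes gave 5 higher of 9, with a median of 1.03 beside 0.19 for all genes, led by the matrix protein Sparc at 1323 and 4291 CPM. Serpinf1, another of the 5, was at 7.65 CPM (3 UMIs) and 19.6 CPM. In keratocytes Sparc was at 12219 and 30954 CPM and Serpinf1 at 2008.3 and 3367.8 CPM. Keratocyte gate genes stood in blood endothelial cells at 0.0966% and 0.274% of their keratocyte level. The part of carry-over in this list's counts was not tested. The lymphatic programme gave 3 higher of 7, all from few wild-type UMIs. Itga9 was at 22.9 CPM (9 UMIs) and 82.2 CPM, and Gja4, an arterial connexin, at 17.8 CPM (7 UMIs) and 62.6 CPM. Foxc2 was at 5.10 CPM (2 UMIs) and 10.6 CPM. The gate keeps cells with high Prox1 and Lyve1, both on this list, out of this class. Lymphatic gate genes summed to 20.39 and 43.46 CPM here, and their part in the list's values was not tested. Processing gave 1 higher of 5 (Furin at 38.2 and 85.4 CPM), neuropilin partners 1 of 8 and other angiogenic factors 1 higher and 1 lower of 7.

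The genes whose levels ran most like each member's were found over 13 points, each a class in a library with 20 or more cells, among 11245 genes, by Pearson's r of log2(CPM + 1). The points share libraries, so r describes likeness only. For Vegfd they were Wnt5b (0.906), Kcnj15 (0.884) and Rab27a (0.870), and for Vegfc Jam2 (0.965), Sox11 (0.922) and Apln (0.893). For Kdr they were Dennd3 (0.957), Meox1 (0.954) and Aqp1 (0.944), for Flt1 Tcf15 (0.947), and for Flt4 Wscd1 (0.976). For Pgf it was Pparg (0.943), for Nrp2 Zeb1 (0.956) and for Nrp1 Smad7 (0.899). Vegfa had no gene above Lrpap1 (0.847) and Vegfb none above Gm17018 (0.875), so their patterns were the least shared.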

How the data were processed

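Per the file headers, the authors made the deposited matrices with Cell Ranger 8.0.0; they hold raw UMI counts per gene and barcode, not normalized, and per the submitters' processing notes the build is GRCm38. The libraries held 124540296 and 131567589 UMIs in 11354 and 10574 barcodes; the lowest barcode had 500 UMIs, so barcodes had been selected before deposit. Barcodes under 500 genes, under 1000 UMIs or over 20% mitochondrial UMIs were dropped, which kept 89.4% and 90.2%. No doublet caller was run; 95 and 115 cells passed more than 1 gate and went to the gate they exceeded most. Gates, in UMIs per 10000, were 30 for Krt5, Krt14 and Krt15 (epithelial), 50 for Dcn, Lum and Kera (keratocytes), 20 for 6 myeloid genes and 10 for 6 endothelial, 6 mural and 5 Schwann genes, with 10 of lymphatic genes splitting the endothelial cells.

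UMIs were summed per class and library in Python 3.11.15 (numpy 2.4.6, scipy 1.17.1, pandas 2.3.3) and scaled to CPM. The ratio code was tested on simulated data. edgeR 4.0.16 and DESeq2 1.42.0 (R 4.3.3) gave scaling factors only. Bounds against 0 UMIs used 3 UMIs per library. Thinning used 2000 UMIs and left out shallower cells. Positions are from the GENCODE vM21 annotation of GRCm38, promoter windows from RefSeq; 10 of 10 members matched. The text names every member, the highest and lowest ratios (at most 2 each) of each list in epithelial cells, keratocytes and blood endothelial cells, and the genes most like each member. Serpinf1 and Sparc outside blood endothelium, Prox1, Foxc2, Erg, Sox17, Gpha2 and Krt12 lie outside this rule and were chosen after their values were seen. The members and lists were chosen with earlier results of these data known. Alternatives tried were other scalings, filters, gates, depths, sexes, and Krt12 and Kera splits.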

Additional observations from a re-analysis of the deposited data

Results flagged for a closer look

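Cells that passed no gate, which no comparison above uses, held several members above the wild-type level in the library labelled Pax6 +/-. The share of all genes that stood likewise higher in these cells was not counted, so this is no result about the members. Vegfa was at 63.0 CPM there against 1.72 CPM in wild-type ungated cells, and Vegfd at 50.7 against 1.72 CPM. Vegfc was at 11.2 against 1.72 CPM, and Pgf at 4.12 CPM (7 UMIs) against no UMI. Flt1 was at 34.2 against 5.74 CPM, and Kdr at 5.89 CPM (10 UMIs) against 0.86 CPM (3 UMIs). Nrp1 was at 56.0 against 7.17 CPM and Nrp2 at 47.1 against 10.0 CPM. Vegfb was not higher, at 27.1 against 31.5 CPM, and Flt4 was at 1.77 against 1.15 CPM, from 3 and 4 UMIs. Check markers summed in these cells were at 3637 and 2351 CPM for epithelium, 147 and 1299 CPM for keratocytes and 14.9 and 94.2 CPM for endothelium, in wild type and in the other library; their part in the members' levels was not tested.

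Some members differed between the libraries in opposite directions in 2 groups of cells, and the difference between the ratios was not tested in any of these. Vegfb had a ratio of 1.54 in epithelial cells and 0.726 in keratocytes. Flt1 had a ratio of 4.26 in Krt12-high Gpha2-low epithelial cells, where 40.3% of the wild-type UMIs sat in 4 cells with endothelial UMIs, and 0.0541 in Krt12-low Gpha2-high cells. Kdr had a ratio of 1.86 in epithelial cells, at levels near carry-over, and 0.0931 in mural cells, from 4 and 5 UMIs. Nrp1 had a ratio of 8.12 in Schwann cells, from 4 wild-type UMIs, and 0.362 in myeloid cells. Nrp2 had a ratio of 2.15 in myeloid cells and 0.699 in lymphatic endothelial cells, which rest on 34 and 14 wild-type cells.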

How the results depend on the processing

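No replicate could be left out, and no paired analysis was possible because there is 1 library per genotype. Over the alternatives, 90 of 106 counts of members stayed within 1.5 times and 16 moved. Members at least 2-fold higher in epithelial cells were 5 with no filter on CPM, against 2; members lower there were 1 (Flt1) in cells with Krt12 under 20 per 10000, against 0. In keratocytes the 2 higher members became 1 with a filter at 20 CPM, 4 with no filter, 1 when limited to cells with Xist and without Y-linked UMIs, and 0 in cells with under 10 Kera per 10000, where the 1 lower member also became 0. In mural cells the 1 higher member became 3 under edgeR TMM factors, DESeq2 size factors and halved gate limits, 2 as a mean over cells, and 0 with a filter at 20 CPM, doubled gate limits, multi-gate cells left out or the 5% deepest cells left out. In blood endothelial cells the 2 became 0 with a filter at 20 CPM. Of the log2 ratios, 431 stayed within counting error of the value reported and 61 moved beyond it. Those that stayed include the ratios under other filters on CPM, which could not move. Among members past 2-fold, 1 more changed sign: Kdr in keratocytes was −2.36, and 0.56 in those with under 10 Kera per 10000. Among the others, signs also changed for epithelial Nrp1 (0.53, and −2.87 with Krt12 at least 20), epithelial Flt1 (1.71, and −3.25 with Krt12 under 20) and Flt4 (1.97, and −0.10), keratocyte Vegfb (−0.46, and 0.86 with Kera under 10) and Pgf (0.06, and −1.79) and mural Vegfc (−0.94, and 0.39 as a mean over cells), and for further members of mural and blood endothelial cells. The Kera split was chosen after seeing the data, as were the Krt12 splits and the removal of epithelial cells with endothelial UMIs. The other causes were not tested. All 12 shares of cells moved without thinning. Depth limits the wild-type mural, endothelial, Schwann and myeloid cells, where several members rest on 5 UMIs or fewer.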

Other observations

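Beside Kdr, the keratocyte gate held Erg, a transcription factor best known from endothelium, at 387 CPM in wild type and 255 CPM in the library labelled Pax6 +/-, while epithelial cells held 0.775 and 1.92 CPM. Sox17, another endothelial factor, had 3 wild-type UMIs and none in the other library in the same keratocytes. After thinning, Vegfa UMIs were seen in 14 of 196 wild-type keratocytes with a Kdr UMI (7.14%, exact 95% interval 3.96 to 11.7) and in 42 of 436 without (9.63%, 7.03 to 12.8), which overlap. Pax6 +/- myeloid cells had a Vegfa UMI in 20 of 98 cells (20.4%) after thinning, against 1 of 24 wild-type myeloid cells (4.17%).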
